A study of Mus musculus with 8 samples.

Results

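The Frizzled receptor genes are the 10 mouse genes *Fzd1* to *Fzd10*, taken by symbol from the 48440 genes listed in the count files, and all 10 passed the filter on low counts. Their transcripts were measured by poly(A) RNA sequencing in mouse embryonic stem (ES) cells that had been differentiated in vitro for 1 day. The lines were made from MK6 cells, of strain C57BL/6J, and cover 4 genotypes of the T-box gene *Tbxt* with 2 libraries each, 8 in all. Wild-type cells were compared with *Tbxt* Δexon6/Δexon6 cells, in which both alleles lack exon 6, with *Tbxt* Δexon6/+ cells, in which 1 allele lacks it, and with *Tbxt* insASAY/insASAY cells, in which both alleles carry an inserted human AluY and AluSx1 pair around exon 6.

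All 4 genotypes, wild-type included, were differentiated without feeder cells in a medium with CHIR99021, a GSK3 inhibitor that switches on Wnt signalling below the receptor. The methods give 2 replicates per genotype as biological and place the Δexon6/Δexon6 replicates in different clones. For the other lines no clone or culture is stated, so p-values measure the spread between these libraries, part of which may be technical. Each mutant line also went through editing, drug selection and picking of clones. By the methods, the deletion was made in cells grown without feeders. The Alu pair was inserted in cells grown on feeders, and a selection cassette was later removed with Cre. Fold changes between genotypes are thus differences between lines, and how much of them is due to *Tbxt* was not tested.

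Frizzled proteins are receptors that cross the cell membrane many times and bind Wnt ligands through a cysteine-rich domain outside the cell. With the co-receptors Lrp5 and Lrp6 they recruit Dishevelled, which stops the destruction complex from degrading β-catenin, and β-catenin then drives transcription with the Tcf and Lef factors. Frizzleds also act without β-catenin in planar cell polarity, and in the early embryo Wnt signalling is needed for the primitive streak and for *Tbxt* expression. By protein similarity the family falls into *Fzd1*, *Fzd2* and *Fzd7*, *Fzd5* and *Fzd8*, *Fzd9* and *Fzd10*, *Fzd3* and *Fzd6*, and *Fzd4* on its own.

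RefSeq promoter windows on GRCm38.p6 matched 6 of the 10 genes, and in the 250 bases before the transcript start these were searched on both strands for the Tcf/Lef cores CTTTGA and CTTTGT and for the T-box motif TCACAC. The cores share their first 5 letters, so a stretch read on a strand can match only 1 of them. *Fzd1* held both cores, with the first letters 242 and 37 bases before the start, *Fzd7* held CTTTGT 129 bases before it, and the other 4 windows held none of the 3 motifs. Over all 32851 promoter windows, 13.8% held CTTTGA, 16.5% held CTTTGT, 27.6% held either and 12.3% held TCACAC. The *Fzd1* and *Fzd7* windows are shown because they hold a core, and *Fzd5* because it is a GC-rich family member without one. Capitals mark the cores on either strand, and each sequence runs 5′ to 3′ on the strand of its gene.
Fzd1, chr5:4758217-4758466, minus strand: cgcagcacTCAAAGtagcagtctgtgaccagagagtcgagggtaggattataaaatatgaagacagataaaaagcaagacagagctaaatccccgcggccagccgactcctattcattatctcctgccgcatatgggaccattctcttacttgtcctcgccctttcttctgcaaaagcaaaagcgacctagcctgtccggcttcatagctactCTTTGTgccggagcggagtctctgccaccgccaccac
Fzd7, chr1:59481897-59482146, plus strand: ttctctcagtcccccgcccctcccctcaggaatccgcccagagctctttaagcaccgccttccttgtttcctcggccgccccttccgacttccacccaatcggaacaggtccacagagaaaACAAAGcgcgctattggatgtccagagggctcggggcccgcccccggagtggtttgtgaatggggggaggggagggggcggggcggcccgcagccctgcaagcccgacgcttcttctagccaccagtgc
Fzd5, chr1:64737752-64738000, minus strand: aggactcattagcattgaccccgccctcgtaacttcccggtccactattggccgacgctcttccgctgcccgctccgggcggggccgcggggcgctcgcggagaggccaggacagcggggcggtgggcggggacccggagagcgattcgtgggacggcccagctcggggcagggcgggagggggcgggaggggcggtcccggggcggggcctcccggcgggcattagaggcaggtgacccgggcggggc
The *Fzd1* window was 51.2% G and C with 12 CpG sites, and the *Fzd7* window 65.2% with 17. The other 4 windows ran from 72.8% to 76.4% G and C with 25 to 42 CpG sites, against medians of 52.4% and 6 over all windows. None of the 3 shown lies in a gene model of its own strand in GENCODE M21. The *Fzd1* and *Fzd7* models there start downstream of these windows, at 4758035 and 59482424. By those models the cores lie further upstream than the distances given. The *Fzd5* window overlaps *Gm38058*, a transcript model of uncertain standing on the other strand. Of the windows not shown, 250 bases of *Fzd10*, 183 of *Fzd9* and 11 of *Fzd4* lie inside the model of the gene itself. By those models the whole *Fzd10* window and most of the *Fzd9* window are not upstream of the gene. Their motifs and base content are thus not a reading of upstream sequence. A match is a string of letters and not a measured binding site.

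Each library held between 24618587 and 28445952 reads on genes. The Δexon6/Δexon6 replicates, which are different clones, stood further apart than the other pairs: their counts differed by a chi-square of 11.4 per degree of freedom, against 2.80 to 3.47 in the other genotypes. Where leaving out a clone changes the call of a Frizzled gene in Δexon6/Δexon6 cells, the value without it is given. For named Wnt genes the value is given only where a call was lost. *Lgr6* is the exception, as its call was not recomputed. Calls that Wnt genes gained without a clone were not followed gene by gene. The remaining library is assumed to vary like the other groups. *Tbxt* itself had 47 and 42 reads in wild-type, 26 and 22 in Δexon6/Δexon6, 39 and 54 in Δexon6/+ and 30 and 29 in insASAY/insASAY cells. Its log2 fold change against wild-type was -0.81 in Δexon6/Δexon6 (edgeR adjusted p = 0.0360), 0.17 in Δexon6/+ and -0.60 in insASAY/insASAY cells. The Δexon6/Δexon6 call of *Tbxt* was lost by DESeq2 (adjusted p = 0.152), in a fit of those 2 genotypes (0.0595) and without either wild-type library (0.148 and 0.0924), without Δexon6/Δexon6 replicate 2 (log2 fold change -0.63, 0.183) or without either insASAY/insASAY library (0.0534 and 0.0531), so no fall is read from it. These gene-level counts do not resolve exon 6 and so do not check the edits.

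Summed over 9 ES cell marker genes, all detected in every library, levels were 768 to 774 CPM (reads scaled to the size of the library) in wild-type, 492 to 621 in Δexon6/Δexon6, 593 to 599 in Δexon6/+ and 615 to 621 in insASAY/insASAY libraries. A list of 6 neural progenitor genes, of which *Neurog2* was at 0 in some libraries, summed to 108 to 110 CPM in wild-type and 107 to 108 in Δexon6/+, 122 to 131 in insASAY/insASAY and 152 to 199 in Δexon6/Δexon6 libraries. For 8 primitive streak and mesoderm genes, with *Msgn1* at 0 in some libraries, the sums were 16.3 to 18.6, 10.2 to 12.1, 17.0 to 20.9 and 23.4 CPM in both libraries, in the same order of genotypes. The mesoderm sum followed *Eomes*, at 13.2 and 14.8 CPM in wild-type, 20.4 and 20.3 in Δexon6/Δexon6 and 6.36 and 8.13 in Δexon6/+ libraries. The neural sum followed *Nes* in Δexon6/Δexon6 libraries, at 136 and 185 CPM against 89.7 and 94.1 in wild-type. In Δexon6/+ libraries the neural sum did not follow *Nes*, which was lower, at 68.2 CPM in both. There *Sox1* was higher, at 24.5 and 23.6 CPM against 6.32 and 5.36 in wild-type. *Pax6* was also higher, at a mean of 6.33 CPM in Δexon6/+ against 2.56 in wild-type libraries. *Gsc* went against the mesoderm sum, with 5 and 8 reads in wild-type and 2 and 3 in Δexon6/Δexon6 libraries. The ES cell sum has *Pou5f1* as its largest member, at 295 and 282 CPM in wild-type and 176 and 184 in Δexon6/+ libraries. Not all of its members fell. *Sox2* had 71.2 and 66.2 CPM in wild-type and 117 and 109 in Δexon6/+ libraries. *Zfp42* had 29.4 and 28.7 in wild-type and 40.2 and 39.2 in insASAY/insASAY libraries. The marker genes named with their levels were chosen after their values were seen. Feeder fibroblast genes, 8 in number with *Postn* and *Lum* at 0 in some libraries, summed to at most 26.1 CPM, and 6 endoderm genes to at most 16.1. The part of these marker shifts in the Frizzled results was not tested, and in bulk libraries fewer cells of a type and less RNA per cell cannot be told apart.

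*Fzd2* and *Fzd7* were the main Frizzled transcripts at every genotype. Compared as TPM, which divides reads by exon length and scales every library to the same total, wild-type cells held 50.2 ± 1.42 TPM of *Fzd7* (SD, n = 2) and 49.3 ± 1.57 of *Fzd2*, and these values overlapped between the 2 genes. *Fzd5* followed at 12.9 ± 0.218 TPM, *Fzd9* at 9.08 ± 0.805 and *Fzd10* at 6.86 ± 0.394, with no overlap between these 3. The other 5 genes lay between 2.09 and 3.45 TPM, where *Fzd1* and *Fzd4* overlapped and *Fzd3*, *Fzd8* and *Fzd6* followed. *Fzd2* and *Fzd7* held the first 2 places in all 8 libraries, *Fzd5*, *Fzd9* and *Fzd10* places 3 to 5, and the rest places 6 to 10. For *Fzd3*, *Fzd6* and *Fzd8* the exon length comes from another version of the gene model than the counts name.

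**Figure D1:**
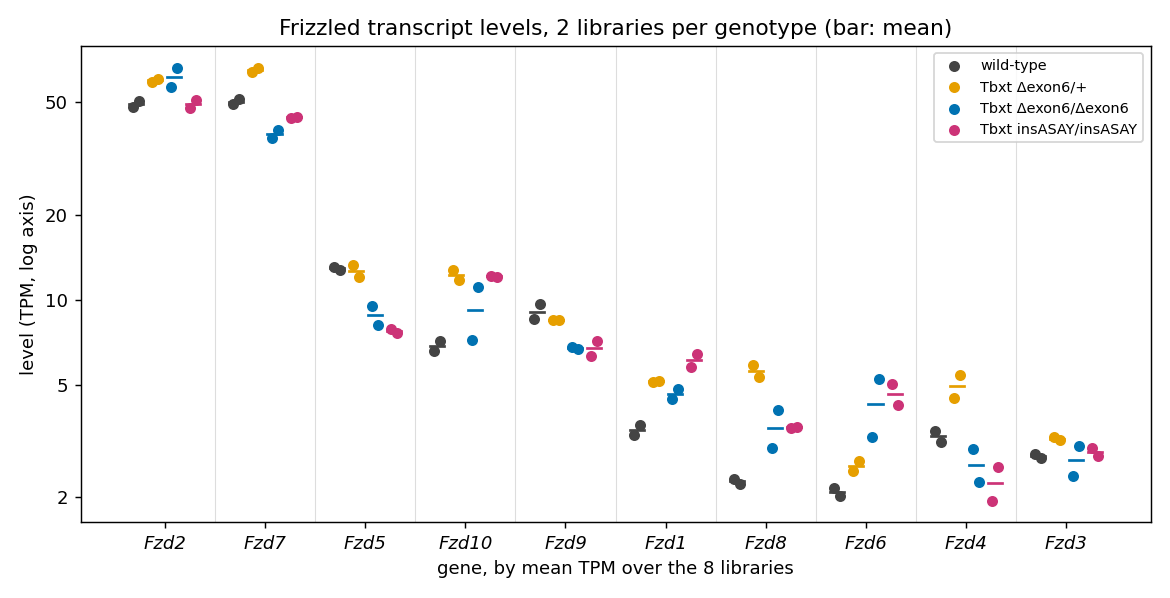
Transcript level of each Frizzled gene in TPM on a log axis, with a point for each of the 2 libraries per genotype and a bar for their mean. *Fzd2* and *Fzd7* lie between 37.2 and 66.2 TPM in every library, and every other gene at or below 13.3 TPM.

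The family total was 139.6 and 145 TPM in wild-type, 133 and 151 in Δexon6/Δexon6 and 137 and 141 in insASAY/insASAY libraries, and 179 and 180.2 in Δexon6/+ libraries. Both Δexon6/+ libraries were thus above all 6 others, which overlapped. *Fzd1*, *Fzd2* and *Fzd7* together made up 72.4% of the family total in wild-type, 73.4% in Δexon6/Δexon6, 72.3% in Δexon6/+ and 71.3% in insASAY/insASAY cells. Within that group the balance differed: *Fzd2* made up 34.7% ± 0.189 of the family total in wild-type and 43.1% ± 0.925 in Δexon6/Δexon6 cells, while *Fzd7* made up 35.3% ± 0.0654 and 27.1% ± 1.14 (SD, n = 2).

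**Figure D2:**
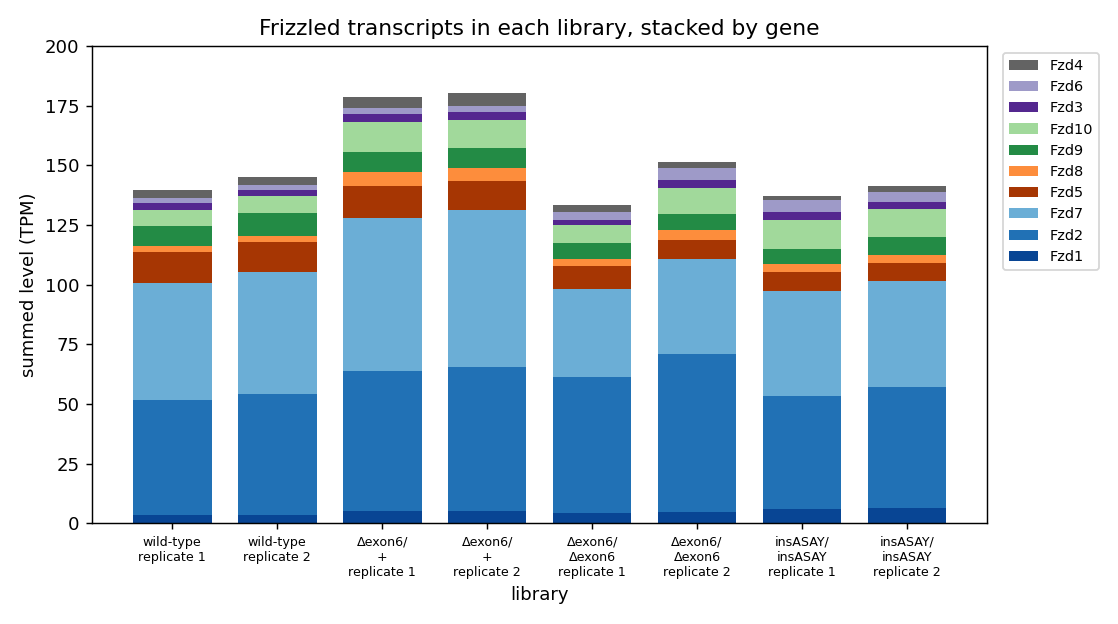
Level of the 10 Frizzled genes in TPM, stacked by gene in each of the 8 libraries. The Δexon6/+ bars reach 179 and 180.2 TPM, and the other 6 bars lie between 133 and 151.

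Against wild-type, 4 of the 10 Frizzled genes changed in Δexon6/Δexon6 cells, 3 in Δexon6/+ cells and 7 in insASAY/insASAY cells. Calls required an edgeR quasi-likelihood adjusted p below 0.05 together with a log2 change of more than 0.5 in either direction. Over the 17049 genes tested, the same thresholds called 12.7% in Δexon6/Δexon6, 13.5% in Δexon6/+ and 21.3% in insASAY/insASAY cells. In Δexon6/Δexon6 cells *Fzd6* and *Fzd8* rose and *Fzd5* and *Fzd9* fell, where 6.12% of all genes rose and 6.59% fell. In Δexon6/+ cells *Fzd4*, *Fzd8* and *Fzd10* rose and none fell, with 6.60% of all genes rising and 6.89% falling, and the 6 Frizzleds at an unadjusted p under 0.05 and the 4 called by DESeq2 were all higher. In insASAY/insASAY cells *Fzd1*, *Fzd6*, *Fzd8* and *Fzd10* rose and *Fzd4*, *Fzd5* and *Fzd9* fell, with 11.5% of all genes rising and 9.85% falling. The Δexon6/Δexon6 count rested on the clone: it was 1 without replicate 2, where *Fzd6* alone was called, and 6 without replicate 1, where *Fzd4* and *Fzd10* were added. The insASAY/insASAY count was 4 without insASAY/insASAY replicate 1. The 3 comparisons share the 2 wild-type libraries and are not independent.

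The median log2 fold change of the 10 genes was 0.05 in Δexon6/Δexon6, 0.26 in Δexon6/+ and -0.07 in insASAY/insASAY cells, against medians between -0.01 and 0.00 over all tested genes. In size, without regard to sign, the medians were 0.44, 0.26 and 0.59, against 0.23, 0.21 and 0.29 over all tested genes. In a test of any difference among the 4 genotypes, 9 of the 10 genes passed an adjusted p of 0.05, against 66.4% of all genes, and *Fzd3* did not (adjusted p = 0.214, edgeR's quasi-likelihood F test).

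**Figure D3:**
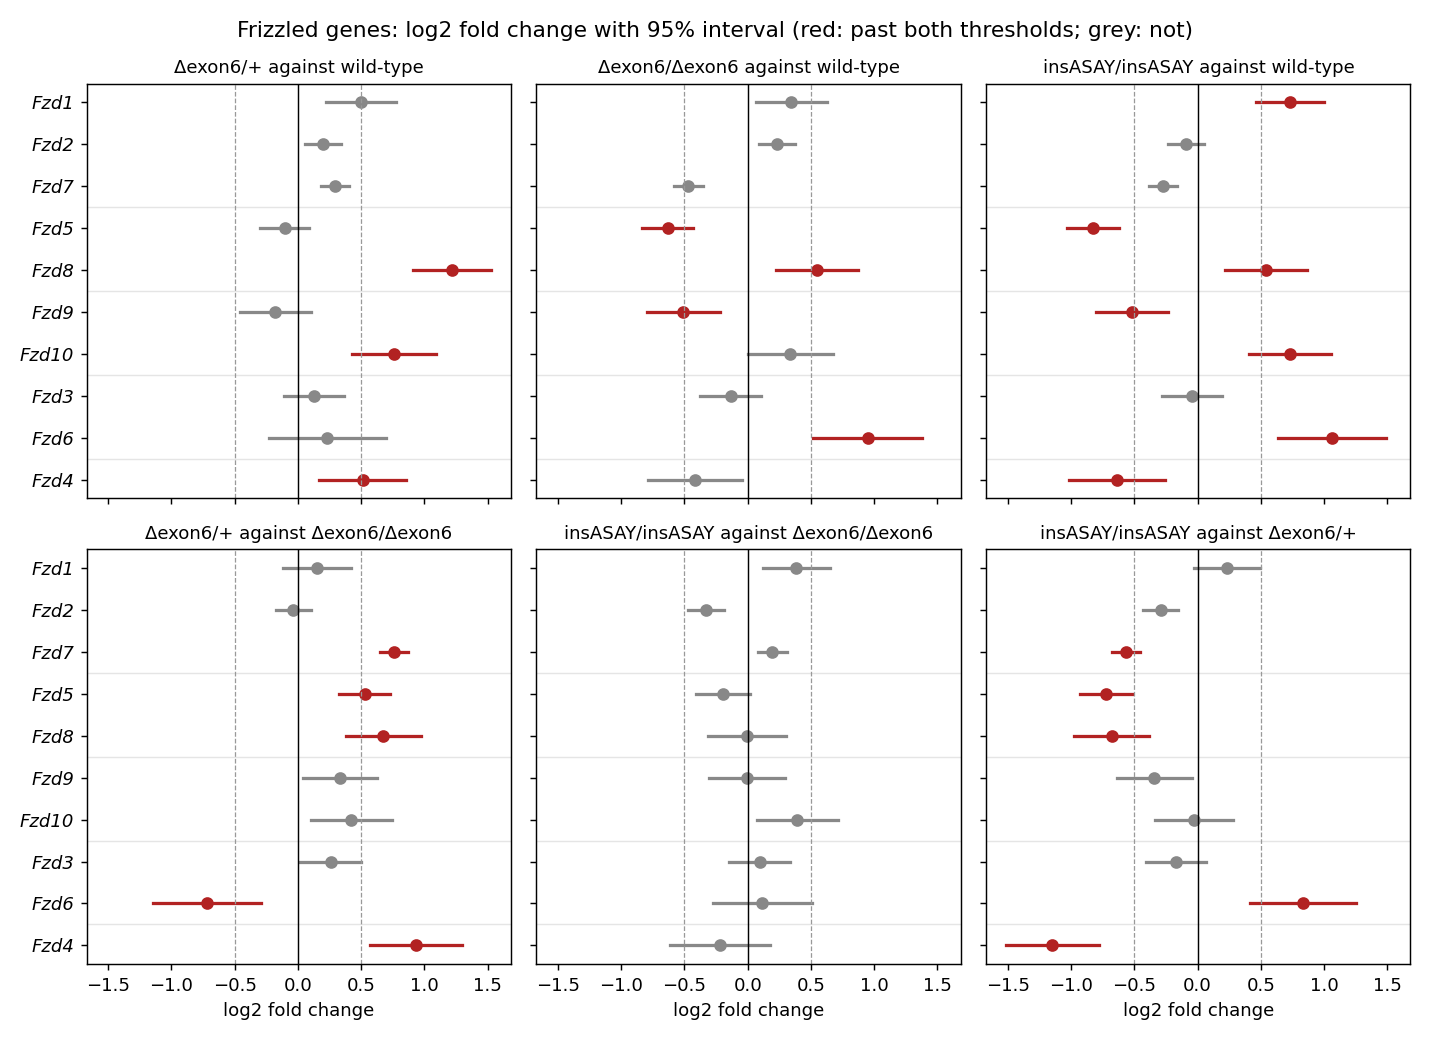
Log2 fold change of each Frizzled gene with its 95% interval in the 6 comparisons of genotypes, red where the gene passed both thresholds and grey where it did not; dashed lines mark 0.5 on either side of 0. Against wild-type, *Fzd8* lies to the right in all 3 comparisons, *Fzd5* and *Fzd9* are red on the left and *Fzd6* red on the right in the Δexon6/Δexon6 and insASAY/insASAY panels, and no gene is red for insASAY/insASAY against Δexon6/Δexon6.

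*Fzd5* (ENSMUSG00000045005.9, chr1:64730558-64737751, minus strand, GRCm38) encodes a receptor needed for yolk sac and placental vessels and, with *Fzd8*, for eye development. Its level was 31.4 and 30.7 CPM in wild-type, 30.1 and 27.6 in Δexon6/+, 22.0 and 18.1 in Δexon6/Δexon6 and 17.9 and 17.1 in insASAY/insASAY libraries. All 4 libraries of the 2 homozygous lines were below all 4 of the others. Against wild-type its log2 fold change was -0.63 ± 0.09 (SE) in Δexon6/Δexon6 cells with an adjusted p of 0.000359 by edgeR, and -0.83 ± 0.09 in insASAY/insASAY cells with an adjusted p of 2.19e-05. In Δexon6/+ cells it was -0.10, with a 95% interval from -0.30 to 0.09. Without Δexon6/Δexon6 replicate 2 the fall in that line was -0.49, just under the fold threshold, with an edgeR adjusted p of 0.000210.

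*Fzd8* (ENSMUSG00000036904.5, chr18:9212163-9218136, plus strand), the close relative of *Fzd5*, went the other way. Libraries held 4.84 and 4.65 CPM in wild-type, 5.95 and 7.85 in Δexon6/Δexon6, 6.92 and 6.88 in insASAY/insASAY and 11.5 and 10.5 in Δexon6/+ cells, from 125 to 305 reads. Every mutant library was above both wild-type libraries, and both Δexon6/+ libraries were above all others. The rise in Δexon6/+ cells was 1.22 ± 0.14 on the log2 scale, a 2.33-fold change with an edgeR adjusted p of 3.29e-05. It was 0.54 ± 0.15 in Δexon6/Δexon6 and 0.54 ± 0.15 in insASAY/insASAY cells (edgeR adjusted p = 0.0133 and 0.00952). These smaller rises were just past the threshold: the Δexon6/Δexon6 call was lost without either wild-type library (edgeR adjusted p = 0.0624 and 0.0810), without Δexon6/Δexon6 replicate 2 (log2 fold change 0.33) and in a fit of those 2 genotypes alone, and the insASAY/insASAY call without wild-type replicate 2 (0.0611) or insASAY/insASAY replicate 1 (0.0552).

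*Fzd6* (ENSMUSG00000022297.14, chr15:39006034-39038188, plus strand) is known from planar cell polarity, in the patterning of hair and the closure of the neural tube. It was the lowest Frizzled transcript in wild-type cells, at 3.61 and 3.39 CPM from 100 and 91 reads. Libraries held 3.94 and 4.29 CPM in Δexon6/+, 5.26 and 8.18 in Δexon6/Δexon6 and 7.98 and 6.66 in insASAY/insASAY cells, so that both homozygous lines were above the other 4 libraries. The rise was 0.95 ± 0.20 on the log2 scale in Δexon6/Δexon6 (edgeR adjusted p = 0.00302) and 1.06 ± 0.20 in insASAY/insASAY cells (0.000702). In Δexon6/+ cells the value was 0.23, with an interval from -0.23 to 0.69. The 2 Δexon6/Δexon6 clones differed 1.55-fold, and the rise was 0.59 without replicate 2 and 1.23 without replicate 1, with the call kept either way.

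Its relative *Fzd3* (ENSMUSG00000007989.6, chr14:65192449-65262463, minus strand), needed for axon guidance and also part of planar cell polarity, passed an adjusted p of 0.05 in none of the 6 comparisons, although its unadjusted edgeR p was under 0.05 between Δexon6/+ and Δexon6/Δexon6 cells (0.0351). Its levels ran from 10.2 to 13.7 CPM over the 8 libraries. The intervals of its log2 fold changes against wild-type spanned -0.38 to 0.11 in Δexon6/Δexon6, -0.11 to 0.36 in Δexon6/+ and -0.28 to 0.20 in insASAY/insASAY cells.

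*Fzd10* (ENSMUSG00000081683.5, chr5:128600844-128604093, plus strand) and *Fzd9* (ENSMUSG00000049551.2, chr5:135248938-135251230, minus strand) also differed in direction. *Fzd9* is known for roles in bone and in B cell development, and *Fzd10* for its expression in the dorsal neural tube. *Fzd10* was at 7.44 and 8.08 CPM in wild-type, 13.6 and 12.6 in Δexon6/+, 13.0 and 12.8 in insASAY/insASAY and 7.85 and 11.7 in Δexon6/Δexon6 libraries. Replicate 1 of Δexon6/Δexon6 thus lay within the wild-type range and replicate 2 well above it. The log2 rise was 0.76 ± 0.15 in Δexon6/+ (edgeR adjusted p = 0.00193) and 0.73 ± 0.15 in insASAY/insASAY cells (0.00152), and both calls held when any library was left out. In Δexon6/Δexon6 cells the value was 0.34 with an edgeR adjusted p of 0.109. It was 0.59 and called without replicate 1, and 0.02 without replicate 2.

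*Fzd9* levels were 6.79 and 7.70 CPM in wild-type, 6.36 and 6.46 in Δexon6/+, 5.22 and 4.95 in Δexon6/Δexon6 and 4.77 and 5.34 in insASAY/insASAY libraries. The 4 libraries of the homozygous lines were below the 4 others. The log2 fold change was -0.51 ± 0.13 in Δexon6/Δexon6 and -0.52 ± 0.13 in insASAY/insASAY cells (edgeR adjusted p = 0.0102 and 0.00609), and -0.18 in Δexon6/+ cells with an interval from -0.46 to 0.10. Both calls lay at the fold threshold. Without wild-type replicate 2 they were lost at -0.42 in both lines, and without Δexon6/Δexon6 replicate 2 or insASAY/insASAY replicate 1 at -0.47 and -0.45.

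*Fzd4* (ENSMUSG00000049791.4, chr7:89404355-89413134, plus strand), the receptor of norrin in retinal and ear vessels, was the Frizzled called in opposite directions in 2 lines. It was at 8.01 and 7.37 CPM in wild-type, 9.92 and 12.1 in Δexon6/+, 6.64 and 4.91 in Δexon6/Δexon6 and 4.30 and 5.60 in insASAY/insASAY libraries. Both Δexon6/+ libraries were above both wild-type libraries, and the 4 homozygous libraries below them. The log2 fold change was 0.51 ± 0.16 in Δexon6/+ (edgeR adjusted p = 0.0270) and -0.64 ± 0.18 in insASAY/insASAY cells (0.00927), and between those 2 lines it was -1.15 ± 0.17 (9.83e-05). In Δexon6/Δexon6 cells it was -0.42 with an edgeR adjusted p of 0.0755, which became -0.64 and was called without replicate 1. The Δexon6/+ rise lost its call without either wild-type library or without Δexon6/+ replicate 2 (log2 fold change 0.37). The insASAY/insASAY fall lost it without wild-type replicate 1 (-0.57) or insASAY/insASAY replicate 1 (-0.47), and the difference between the 2 lines kept its call throughout.

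*Fzd7* (ENSMUSG00000041075.8, chr1:59482424-59486955, plus strand), a Frizzled known from undifferentiated pluripotent cells, was measured with 1391 to 2517 reads per library and so with the smallest errors. Its level was 77.5 and 80.8 CPM in wild-type, 95.3 and 98.6 in Δexon6/+, 65.6 and 65.3 in insASAY/insASAY and 56.3 and 58.0 in Δexon6/Δexon6 libraries, with no overlap between any 2 genotypes. Against wild-type the log2 fold changes were 0.29 ± 0.05, -0.27 ± 0.05 and -0.47 ± 0.05 in that order. They had edgeR adjusted p-values of 0.000738, 0.000836 and 7.80e-05 but stayed under the fold threshold, so *Fzd7* differed from wild-type in all 3 lines by less than the size a call requires.

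*Fzd2* (ENSMUSG00000050288.6, chr11:102604396-102608058, plus strand), close in sequence to *Fzd7* and linked to limb and palate growth, was at 61.4 and 64.3 CPM in wild-type, 69.4 and 78.2 in Δexon6/Δexon6, 70.8 and 73.3 in Δexon6/+ and 57.1 and 60.5 in insASAY/insASAY libraries. The first 2 mutant lines were above wild-type and insASAY/insASAY below it in every library. The log2 fold changes were 0.23, 0.20 and -0.09, all under the fold threshold, with edgeR adjusted p-values of 0.0142, 0.0341 and 0.256. *Fzd2* and *Fzd7* thus moved in opposite directions in Δexon6/Δexon6 cells at an adjusted p under 0.05. Without Δexon6/Δexon6 replicate 2 the *Fzd2* value there was 0.14 with an edgeR adjusted p of 0.0776.

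*Fzd1* (ENSMUSG00000044674.6, chr5:4753839-4758035, minus strand), the least expressed of that group, was at 4.84 and 5.25 CPM in wild-type, 6.28 and 6.53 in Δexon6/Δexon6, 7.08 and 7.15 in Δexon6/+ and 7.98 and 8.75 in insASAY/insASAY libraries. No 2 genotypes overlapped. The log2 rise was 0.73 ± 0.12 in insASAY/insASAY cells (edgeR adjusted p = 0.000399), a call that held when any library was left out. In Δexon6/+ cells it was 0.497 with an edgeR adjusted p of 0.00937, just under the fold threshold, and it was 0.504 and called with DESeq2's test or size factors and 0.56 and called without wild-type replicate 2. In Δexon6/Δexon6 cells it was 0.35 with an edgeR adjusted p of 0.0527.

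**Figure D4:**
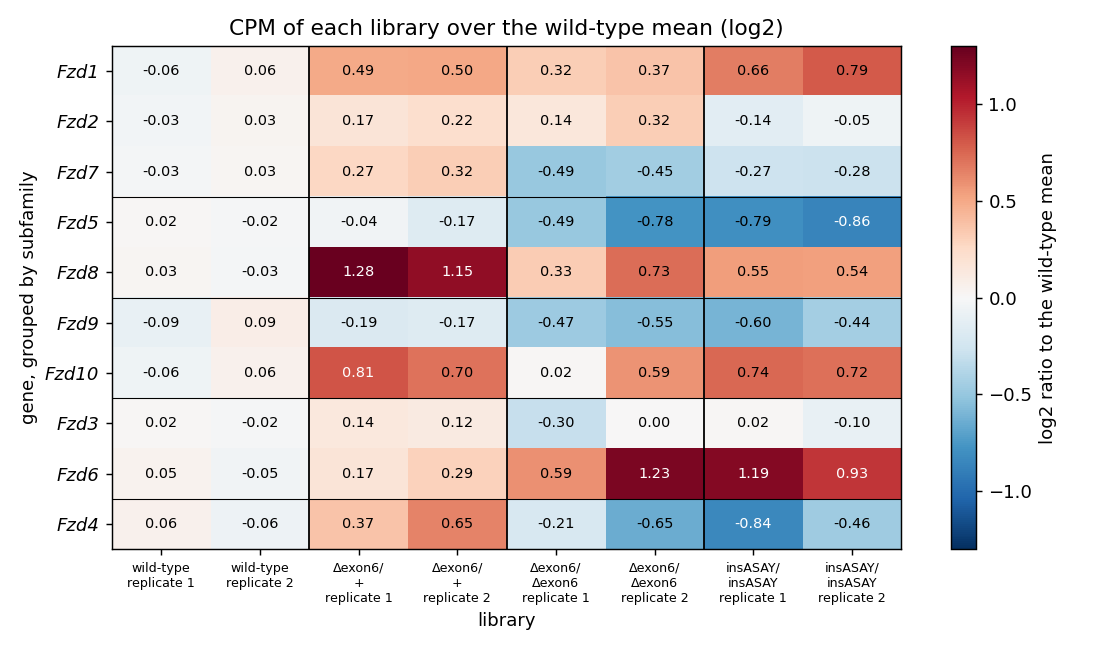
CPM of each Frizzled gene in each library over the wild-type mean, as a log2 ratio, with genes ordered by subfamily. In the Δexon6/Δexon6 and insASAY/insASAY columns *Fzd5* runs from -0.86 to -0.49 and *Fzd6* from 0.59 to 1.23, and the Δexon6/Δexon6 columns differ most at *Fzd6* and *Fzd10*.

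The mutant lines were also compared with each other. Between Δexon6/+ and Δexon6/Δexon6 cells 5 Frizzled genes were called, against 22.2% of all genes tested, with *Fzd4* (log2 fold change 0.93), *Fzd7* (0.76), *Fzd8* (0.67) and *Fzd5* (0.53) higher and *Fzd6* (-0.72) lower in Δexon6/+ cells. *Fzd4* and *Fzd7* kept their calls when any library was left out. *Fzd5* and *Fzd6* lost theirs without Δexon6/Δexon6 replicate 2 (0.39 and -0.36) or Δexon6/+ replicate 1 (0.46 and -0.65), and *Fzd8* without Δexon6/Δexon6 replicate 1 (0.49). *Fzd10*, at 0.42 and under the fold threshold, was called without Δexon6/Δexon6 replicate 2 (0.74).

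Between insASAY/insASAY and Δexon6/+ cells 5 were called, against 27.5% of all genes tested. *Fzd6* was higher by 0.83 ± 0.19 on the log2 scale in insASAY/insASAY cells. *Fzd4* (-1.15 ± 0.17), *Fzd5* (-0.72 ± 0.09), *Fzd8* (-0.68 ± 0.14) and *Fzd7* (-0.57 ± 0.05) were lower. All 5 kept their calls when any library was left out.

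Between insASAY/insASAY and Δexon6/Δexon6 cells, the 2 homozygous lines, edgeR called 0 of the 10 genes, against 5.16% of all genes tested. At an unadjusted p under 0.05 it gave 4. At an adjusted p under 0.05, without the fold threshold, DESeq2 gave 1. At an edgeR adjusted p under 0.05 but within the fold threshold, *Fzd1* (0.38) and *Fzd7* (0.19) were higher and *Fzd2* (-0.33) lower in insASAY/insASAY cells. The missed threshold does not show that the lines were alike. The 95% intervals of the log2 difference ran from -0.27 to 0.51 for *Fzd6* and from -0.61 to 0.18 for *Fzd4*, and so past the fold threshold. For *Fzd8* (-0.31 to 0.30) and *Fzd9* (-0.31 to 0.29) they stayed within it. These intervals use a spread shared by all genotypes and were not checked against differences between clones. They thus cannot exclude a larger difference between the lines. *Fzd10*, at 0.39, was called without Δexon6/Δexon6 replicate 2 (0.71).

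Across the 8 libraries the most alike pair of Frizzled genes by Pearson's correlation of log2 CPM was *Fzd5* and *Fzd9* (0.909), and *Fzd6* was the most opposed to them (-0.965 with *Fzd5* and -0.943 with *Fzd9*). These describe 8 points from 4 genotypes whose genes share each library's depth and scaling, so they carry no test. Outside the family, the 2 genes most like *Fzd10* were *Lzts2* (0.985) and *Axin2* (0.980), the latter a negative regulator in the destruction complex. For *Fzd5* they were *Pttg1ip* and *Wipi1*, for *Fzd6* *Arl5a* and *Usp1*, for *Fzd8* *Mex3a* and *Psma5*, for *Fzd7* *Tldc1* and *Dpp7*, for *Fzd4* *Phkg2* and *Srprb*, for *Fzd1* *B3gntl1* and *Zfp811* and for *Fzd9* *Whrn* and *Akap9*. All these correlations lay between 0.980 and 0.996, and they single out little, since between 26 and 383 genes passed 0.95 with each of these 8 Frizzleds, *Fzd2* and *Fzd3* being left out because they had no call.

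The rest of the pathway was read from 10 lists of 92 Wnt genes, of which 78 were tested. Against wild-type, 7 rose and 8 fell in Δexon6/Δexon6, 15 rose and 7 fell in Δexon6/+ and 12 rose and 13 fell in insASAY/insASAY cells. As shares of the 78 these are 8.97% and 10.3%, 19.2% and 8.97%, and 15.4% and 16.7%, beside 6.12% and 6.59%, 6.60% and 6.89%, and 11.5% and 9.85% of all tested genes. The counts of each list below stand beside the same shares of all tested genes, and no list was tested as a set. The total of 15 in Δexon6/Δexon6 cells was 8 without replicate 2 and 22 without replicate 1. In Δexon6/+ cells the 848 tested genes of chromosome 3 had a median log2 fold change of 0.32, and 36.1% of them were called. No Frizzled lies on chromosome 3, and on the chromosomes that hold one, the medians against wild-type lay between -0.05 and 0.07.

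Among the Wnt ligands, 13 of 19 were tested, and 2 rose in Δexon6/Δexon6, 2 rose and 3 fell in Δexon6/+, and 3 rose and 3 fell in insASAY/insASAY cells. *Wnt8a*, a ligand of the primitive streak and posterior mesoderm, rose from 10.1 ± 0.921 CPM in wild-type (SD, n = 2) to 25.1 ± 2.27 in Δexon6/+ and 24.3 ± 2.28 in insASAY/insASAY cells. *Wnt9a*, a ligand of joint formation, fell from 33.9 ± 2.81 CPM to 19.7 ± 0.287 and 17.3 ± 1.73 in the same lines. *Wnt6* rose in all 3 lines, by 1.34 ± 0.13 on the log2 scale in Δexon6/Δexon6, 0.85 ± 0.13 in Δexon6/+ and 0.96 ± 0.13 in insASAY/insASAY cells. *Wnt5b* rose by 0.73 ± 0.23 in Δexon6/Δexon6 and 1.06 ± 0.23 in insASAY/insASAY cells. Its Δexon6/Δexon6 call was lost without Δexon6/Δexon6 replicate 2 (0.23) or either wild-type library (0.83 and 0.63). It was also lost in a fit of only those 2 genotypes (edgeR adjusted p = 0.0583).

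Of the proteins that let cells release Wnt, the acyltransferase *Porcn* fell, with log2 fold changes of -1.24 ± 0.18 in Δexon6/Δexon6 and -1.07 ± 0.18 in insASAY/insASAY cells. The Wnt carrier *Wls*, a chromosome 3 gene, fell, with log2 fold changes of -0.66 ± 0.07 in Δexon6/+ and -0.66 ± 0.07 in insASAY/insASAY cells. Wnt antagonists, most of them secreted and 12 of 17 tested, gave 2 falls in Δexon6/Δexon6 cells, 3 rises and 1 fall in Δexon6/+ and 2 rises and 2 falls in insASAY/insASAY cells. The Δexon6/+ fall was that of *Kremen2* (-0.65 ± 0.17), a membrane receptor for Dickkopf proteins, and not of a secreted member. *Sfrp1*, which binds Wnt through a Frizzled-like domain, was at 28.9 ± 3.23 CPM in wild-type (SD, n = 2), 16.9 ± 5.26 in Δexon6/Δexon6 and 56.0 ± 2.67 in Δexon6/+ cells, called in opposite directions. Its fall lost the call without Δexon6/Δexon6 replicate 2 (-0.49). *Sfrp2*, which has the same kind of domain and lies on chromosome 3, rose by 1.04 ± 0.09 in Δexon6/+ and 0.88 ± 0.09 in insASAY/insASAY cells. *Dkk3*, a member of the Dickkopf family, fell, with log2 fold changes of -0.64 ± 0.10 in Δexon6/Δexon6 and -0.57 ± 0.10 in insASAY/insASAY cells, the latter not called without insASAY/insASAY replicate 1 (-0.47).

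Frizzled proteins are removed from the membrane by the ubiquitin ligases *Rnf43* and *Znrf3*, which R-spondins and Lgr receptors hold off. Of that list of 10, 8 were tested, with 1 rise and 3 falls in Δexon6/Δexon6, 1 of each in Δexon6/+ and 1 rise and 2 falls in insASAY/insASAY cells. *Rnf43* had 8.18 ± 0.522 CPM in wild-type, 4.26 ± 0.842 in Δexon6/Δexon6 and 4.13 ± 0.477 in insASAY/insASAY cells (SD, n = 2), log2 fold changes of -0.95 ± 0.15 and -0.99 ± 0.15. *Rspo1*, a secreted enhancer of Wnt signalling, rose in the same lines by 0.70 ± 0.15 and 0.88 ± 0.15, the first not called without Δexon6/Δexon6 replicate 2 (0.48). In Δexon6/+ cells *Lgr5* (31 and 29 reads against 11 and 8) and *Lgr6* (48 and 49 against 76 and 83) were called up and down, and each lost its call without several single libraries, down to 1.56 for *Lgr5* and -0.52 for *Lgr6*. *Lgr6* was also called lower in Δexon6/Δexon6 cells (-0.54 ± 0.19, edgeR adjusted p = 0.0409), from 46 and 58 reads. DESeq2 did not make that call. In Δexon6/Δexon6 cells it called 2 genes of this list, *Rnf43* and *Rspo1*, where edgeR called 4. The *Lgr6* call in Δexon6/+ cells was also lost with DESeq2 (adjusted p = 0.165). Whether the *Lgr6* call in Δexon6/Δexon6 cells holds without a single library was not tested.

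The co-receptors and other Wnt receptors, 7 of 7 tested, gave 0 calls in Δexon6/Δexon6 cells by edgeR or DESeq2, with 4 at an unadjusted edgeR p under 0.05. Over all tested genes edgeR called 12.7% there. *Ror1* and *Ror2*, kinases that bind Wnt5a, rose in Δexon6/+ cells by 1.83 ± 0.17 and 0.53 ± 0.06, and *Ror2* in insASAY/insASAY cells by 0.58 ± 0.06. The *Ror2* rise in Δexon6/+ cells went under the fold threshold without wild-type replicate 1 (0.49) or Δexon6/+ replicate 2 (0.48). Of the *Fzd4* partners and related genes, 3 of 4 tested, *Adgra2*, a co-activator for Wnt7 signals, had 266 ± 6.22 CPM in wild-type, 187 ± 46.6 in Δexon6/Δexon6, 178 ± 7.39 in Δexon6/+ and 96.9 ± 6.98 in insASAY/insASAY cells (SD, n = 2). Its log2 fold changes were -0.51, -0.58 and -1.45, the first lost without wild-type replicate 2 (-0.48) or Δexon6/Δexon6 replicate 2 (-0.27). That call was also lost with DESeq2's test (-0.497) or size factors (-0.498). *Tspan12*, the norrin co-activator, had 36 to 87 reads per library and rose in insASAY/insASAY cells by 1.06 ± 0.27. Its rise in Δexon6/Δexon6 cells of 0.81 ± 0.28 was lost without replicate 2 (0.32) or either wild-type library and with DESeq2. In a fit of only the 2 genotypes it was lost too (edgeR adjusted p = 0.0765). Norrin itself (*Ndp*) had 0 reads in every library, which allows up to 3 in each.

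Dishevelled and destruction complex genes, 11 of 11 tested, gave 2 rises in Δexon6/+ and 1 in insASAY/insASAY cells. *Nkd1*, which binds Dishevelled, rose by 1.21 ± 0.10 and *Axin2* by 0.54 ± 0.12 in Δexon6/+ cells, and *Axin2* rose by 0.61 ± 0.12 in insASAY/insASAY cells. In Δexon6/Δexon6 cells edgeR and DESeq2 called 0, with 5 at an unadjusted edgeR p under 0.05, where edgeR called 12.7% of all tested genes. Of 9 genes for Tcf/Lef factors, β-catenin and its partners, *Lef1* (1.23 ± 0.11) and *Pygo2* (0.55 ± 0.07), both on chromosome 3, rose in Δexon6/+ cells, the latter at 0.48 without Δexon6/+ replicate 2. *Bcl9l* rose in Δexon6/Δexon6 (0.64 ± 0.13) and insASAY/insASAY cells (0.70 ± 0.13), and *Pygo1* in insASAY/insASAY cells (0.73 ± 0.17). Without Δexon6/Δexon6 replicate 2 the *Bcl9l* rise there was 0.36.

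Among 7 planar cell polarity genes, whose proteins work beside *Fzd3* and *Fzd6*, 2 rose and 1 fell in Δexon6/Δexon6, 1 rose in Δexon6/+, and 1 rose and 1 fell in insASAY/insASAY cells. *Celsr1*, an atypical cadherin, fell, with log2 fold changes of -0.68 ± 0.08 in Δexon6/Δexon6 and -0.66 ± 0.08 in insASAY/insASAY cells, and *Vangl1*, a membrane partner of that pathway, rose by 0.87 ± 0.11 and 0.69 ± 0.11. *Celsr2*, on chromosome 3 like *Vangl1*, rose by 0.69 ± 0.07 in Δexon6/+ cells. The 6 glypicans, proteoglycans that hold Wnt at the cell surface, gave 2 rises in Δexon6/+ cells, *Gpc3* (0.95 ± 0.09) and *Gpc6* (0.97 ± 0.11), and 2 falls in insASAY/insASAY cells, *Gpc3* (-0.56 ± 0.09) and *Gpc4* (-0.62 ± 0.11). Both edgeR and DESeq2 called 0 glypicans in Δexon6/Δexon6 cells, with 3 at an unadjusted edgeR p under 0.05, where edgeR called 12.7% of all tested genes. *Gpc3* was called in opposite directions in the Δexon6/+ and insASAY/insASAY lines, as *Fzd4* was.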

How the data were processed

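RNA of 8 mouse ES cell libraries at day 1 of differentiation, 2 per genotype, was sequenced as strand-specific poly(A) libraries. The authors mapped the reads to mm10 with STAR 2.7.2a and deposited counts of reads per gene, whole numbers without normalization or filter. The annotation release is not given in the sources used here. The column for the strand complementary to read 1 was used here. The count on the other strand holds 4.11% to 4.78% of the reads on either strand, and 1 to 143 reads per Frizzled gene over all libraries. Reads overlapping the antisense genes *Gm38058* (at *Fzd5*) and *Gm26704* (at *Fzd6*) are therefore kept apart. Symbols, coordinates and exon lengths were taken from GENCODE M21 for 48058 of 48440 gene IDs, matched without their version, where the symbol of *Tbxt* is T. Summary lines written by STAR stayed out of all totals and tests.

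The quasi-likelihood F test of edgeR 4.0.16 (R 4.3.3) was the test used. All 8 libraries entered a single model with a coefficient for each genotype, after scaling by TMM factors (0.975 to 1.03). Genes were kept by filterByExpr at its default minimum count (10) and minimum total (15), and p-values were adjusted by Benjamini and Hochberg's method over the 17049 that passed. CPM use TMM-scaled library sizes. TPM divide by the summed exon length. Log2 CPM for correlations use a prior count of 2. Standard errors and 95% intervals come from the fit. It was run on simulated counts with known changes, drawn with the means and spread estimated from these libraries. Those counts held no clone effect, so that run cannot check the intervals against differences between clones. Intervals cover the spread between these libraries.

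The Frizzled members and the Wnt and marker lists were chosen with earlier results of these data known. Named are all 10 Frizzled genes, *Tbxt*, up to 2 called members with the smallest adjusted p per Wnt list and comparison with wild-type, and the 2 genes most like each Frizzled that had a mean of at least 2 CPM and was called in a comparison, without predicted genes. *Kremen2* is named as the sole member of its count, and *Znrf3*, *Ndp* and the co-receptors as background. Members of marker lists are named where they were at 0 or were chosen after their values were seen.

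As alternatives, calls were remade with DESeq2 1.42.0 (its Wald test, and its size factors within edgeR) and with the TREAT test against a log2 fold change of 0.5. The low-count filter was dropped or raised to 10 reads per library, the strand was disregarded, the model was restricted to the genotypes compared or given a replicate block, and each library was left out in turn. For the Wnt lists and *Tbxt* these were added after seeing the data. Promoter windows come from RefSeq on GRCm38.p6, and protein sequences were not analysed here. Tables and plots were made in Python 3.11.15 (pandas 2.3.3, matplotlib 3.10.9).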

Additional observations from a re-analysis of the deposited data

Results flagged for a closer look

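*Fzd4* and *Fzd7* differed between mutant lines that had moved to opposite sides of wild-type, each past an adjusted p of 0.05 in edgeR's quasi-likelihood test. For *Fzd4* the difference of insASAY/insASAY from Δexon6/+ cells was -1.15 on the log2 scale. For *Fzd7* the difference of Δexon6/+ from Δexon6/Δexon6 cells was 0.76, and that of insASAY/insASAY from Δexon6/+ cells was -0.57, although none of its changes against wild-type passed the fold threshold.

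Reads on the strand opposite to a Frizzled transcript were left out of the stranded counts and were added only where the strand was disregarded. At *Fzd7* wild-type cells gave 7 and 16 such reads, against 18 and 20 in Δexon6/Δexon6 and 21 and 26 in insASAY/insASAY libraries, so that even the lowest library of these lines, at 18 and 21, was above wild-type. Δexon6/+ libraries had 15 and 20. At *Fzd4* there were 2 and 0 in wild-type and 4 and 5 in Δexon6/+ libraries. The excess was not tested.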

How the results depend on the processing

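Of the Frizzled values recomputed under settings other than leaving out a library, 458 kept their direction and call, 18 lost the call, 2 gained it and 2 turned sign. All losses but 1 came under TREAT. *Fzd8* in Δexon6/Δexon6 against wild-type cells lost it in a fit of 2 genotypes, *Fzd1* in Δexon6/+ cells gained it with DESeq2's test and with its size factors, and *Fzd8* (0.00524) and *Fzd9* (0.00230) in insASAY/insASAY against Δexon6/Δexon6 cells turned sign with at least 10 counts in every library. No scaling moved the median of all genes by more than 0.00867. The cause was not tested for any of these, except that TREAT tests against a fold and so calls fewer genes by construction.

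TREAT called 267 genes and 0 Frizzleds in Δexon6/Δexon6 against wild-type (2 Frizzleds at an unadjusted p under 0.05, and 4 by DESeq2's Wald test), 775 and 1 in Δexon6/+, 1215 and 2 in insASAY/insASAY, 1548 and 2 in Δexon6/+ against Δexon6/Δexon6, 134 genes in insASAY/insASAY against Δexon6/Δexon6 and 2192 and 2 in insASAY/insASAY against Δexon6/+ cells. It called 3, 10 and 10 Wnt pathway genes in the 3 lines against wild-type. Calls of the named Wnt pathway genes were lost 28 times under TREAT and 6 times under the other settings that kept every library. In insASAY/insASAY against Δexon6/Δexon6 cells, 880 genes were called by edgeR, 581 by DESeq2 and 578 in a fit of 2 genotypes.

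Leaving out 1 library gave 1154 to 3368 genes and 1 to 6 Frizzleds in Δexon6/Δexon6 against wild-type cells. It gave 1726 to 2554 and 2 to 3 in Δexon6/+, 2842 to 3845 and 4 to 7 in insASAY/insASAY, 2928 to 4581 and 3 to 5 in Δexon6/+ against Δexon6/Δexon6, and 371 to 1529 and 0 to 1 in insASAY/insASAY against Δexon6/Δexon6 cells. Wnt pathway calls in Δexon6/Δexon6 cells ran from 8 to 22. Values that changed sign were *Fzd3* in Δexon6/Δexon6 (-0.29 to 0.0061) and insASAY/insASAY (-0.11 to 0.013), *Tbxt* in Δexon6/+ (-0.14 to 0.44) and *Fzd2* in Δexon6/+ against Δexon6/Δexon6 cells (-0.12 to 0.052). In insASAY/insASAY against Δexon6/Δexon6 cells they were *Fzd3* (-0.053 to 0.25), *Fzd4* (-0.43 to 0.0020), *Fzd6* (-0.17 to 0.47), *Fzd8* (-0.19 to 0.21) and *Fzd9* (-0.094 to 0.061), and against Δexon6/+ cells *Fzd10* (-0.083 to 0.027). None of these was called.

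With the replicate block 2135, 2255 and 3610 genes were called in Δexon6/Δexon6, Δexon6/+ and insASAY/insASAY against wild-type, and 0 of 60 Frizzled calls changed. The numbers do not pair the libraries: correlations of the replicate differences between genotypes ran from -0.01 to 0.05. With 91 to 362 reads per library for 7 of the 10 Frizzleds, depth limits the precision of their fold changes.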
